A study of Mus musculus with 6 samples.

Results

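The genes examined here are Nsun2 and 9 other genes of the RNA 5-methylcytosine (m5C) machinery, taken by gene symbol from a deposited table of 54532 genes, in which each of the 10 symbols had 1 row. They were Nsun2, Nsun6 and Trdmt1, Nsun3 and Nsun4, Nop2 and Nsun5, the readers Alyref and Ybx1, and the oxidase Tet2. The RNA came from macrophages that had been differentiated in culture from mouse bone marrow, and was measured by RNA-seq. The 3 NSUN2-KO libraries came from mice knocked out for NSUN2, and the 3 NC libraries from the animals they were set against. Cells of both groups had been polarized with LPS and IFN-γ to the M1 state, an inflammatory form of macrophage, and unstimulated cells were not analysed here. The labels do not give the strain, age or sex of the mice or the meaning of NC, nor do they say how the allele was made or which exons it removes. They call the libraries biological replicates without tying them to animals, so that the p-values measure the spread between these libraries.

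In m5C a methyl group sits on the fifth carbon of a cytosine in RNA. It is placed by methyltransferases, called writers, of the NSUN family and by TRDMT1, also known as DNMT2. Readers bind the mark, and TET enzymes, better known for oxidizing methylcytosine in DNA, can oxidize it in RNA. The writers divide the work by substrate: cytosolic tRNAs and mRNAs, mitochondrial RNAs, or the ribosomal RNA of the large subunit.

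The table gives FPKM, fragments counted on a gene scaled to its length and to the size of the library. Levels can thus be set side by side between genes, though only roughly. For the 10 genes the length merges all annotated exons, whether or not the cells used them. Whole reads could be recovered from the table, with 35019033 to 45636131 reads per library. All 7 macrophage markers and all 6 M1 markers that were looked up had a mean of at least 1 FPKM. None of the 5 T and NK cell, 4 B cell, 3 erythroid or 4 stromal markers did, and Cd3e, Cd3g, Elane and the erythroid markers were at 0. Summed over their lists, macrophage markers measured 3116 to 3160 FPKM in NSUN2-KO against 3726 to 3813 FPKM in NC, with Lyz2, a lysozyme gene, at 1163 ± 47.1 FPKM in NSUN2-KO and 1736 ± 31.2 FPKM in NC (SD, n = 3 each). Of the other macrophage markers, Cd68, Fcgr1 and Mertk were also lower in NSUN2-KO without overlap. Their means were 397.6 FPKM in NSUN2-KO against 456.3 FPKM in NC for Cd68, 529.1 against 575.7 FPKM for Fcgr1 and 55.9 against 61.6 FPKM for Mertk. Adgre1 did not overlap in the opposite direction, at 667.3 to 704.1 FPKM in NSUN2-KO against 634.1 to 659.3 FPKM in NC, and Csf1r and Itgam overlapped. Mertk and Adgre1 did not pass the test described below (limma adjusted p = 0.0743 and 0.108). Over all genes in that test, 31.1% did not overlap between the groups, counting both directions. M1 markers measured 2957 to 3098 FPKM in NSUN2-KO against 2528 to 2581 FPKM in NC. The M1 sums came mostly from Nos2 and Cxcl10. These, Tnf, Il12b and Il6 were each higher in NSUN2-KO without overlap, while Cd86 overlapped. Il6 had means of 9.34 FPKM in NSUN2-KO and 4.37 FPKM in NC, and Il12b 9.37 and 5.28 FPKM. Neutrophil markers measured 63.9 to 66.5 FPKM in NSUN2-KO against 82.4 to 88.0 FPKM in NC, and dendritic cell markers 8.06 to 9.23 FPKM in NSUN2-KO against 4.95 to 5.99 FPKM in NC. The neutrophil sums came mostly from S100a9, Csf3r and Mmp8, each lower in NSUN2-KO without overlap, while Camp overlapped. Ly6g, Elane, Mpo and Ltf had means under 1 FPKM. The dendritic cell sums came mostly from Ccr7 and Xcr1, each higher in NSUN2-KO without overlap, though Xcr1 did not pass the test (limma adjusted p = 0.0768). Flt3, Zbtb46 and Siglech had means under 1 FPKM. Stromal markers measured 0.410 to 0.647 FPKM in NSUN2-KO against 1.38 to 1.503 FPKM in NC. Col1a1 and Col1a2 were lower in NSUN2-KO without overlap, while Pdgfra and Pdgfrb overlapped. The 10 markers of cycling cells, of which Pcna carried most of the level, measured 155.5 to 169.4 FPKM in NSUN2-KO and 160.6 to 164.6 FPKM in NC. Uty, Kdm5d, Ddx3y and Eif2s3y, which lie on the Y chromosome, had 0 reads in every NSUN2-KO library and at least 316 reads each in every NC library. Xist, the X-linked RNA that silences an X chromosome in female cells, measured 30.7, 29.4 and 31.8 FPKM in NSUN2-KO and 15.5, 14.0 and 13.96 FPKM in NC (log2 fold change 1.03, limma adjusted p = 9.45e-05). Every NC library thus held both Y-linked and Xist reads, with Xist at a lower level than in any NSUN2-KO library. The knockout and this sex-linked difference cannot be told apart in the comparisons that follow, and the part of the marker differences in them was not tested. In bulk RNA, fewer cells of a type and less RNA per cell cannot be told apart either.

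The promoter of Nsun2 is shown because it marks the RefSeq start of Nsun2, which lies far inside the counted gene, and the promoters of Nsun3 and Alyref because they hold the same run of letters. Each stretch is from RefSeq (GRCm38.p6) and covers 250 bases before the annotated start and 50 from it, 5′ to 3′ on the gene's strand. Capitals mark the letters CCGGAAGT, a run that ETS family transcription factors can bind.
Nsun2, chr13:69611766-69612065, plus strand: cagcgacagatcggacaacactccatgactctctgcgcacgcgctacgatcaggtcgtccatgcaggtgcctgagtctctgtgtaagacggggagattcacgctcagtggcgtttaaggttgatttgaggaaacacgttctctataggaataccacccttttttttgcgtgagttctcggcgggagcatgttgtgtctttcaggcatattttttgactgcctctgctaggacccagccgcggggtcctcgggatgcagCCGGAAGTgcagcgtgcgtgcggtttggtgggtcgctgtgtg
Nsun3, chr16:62786667-62786966, minus strand: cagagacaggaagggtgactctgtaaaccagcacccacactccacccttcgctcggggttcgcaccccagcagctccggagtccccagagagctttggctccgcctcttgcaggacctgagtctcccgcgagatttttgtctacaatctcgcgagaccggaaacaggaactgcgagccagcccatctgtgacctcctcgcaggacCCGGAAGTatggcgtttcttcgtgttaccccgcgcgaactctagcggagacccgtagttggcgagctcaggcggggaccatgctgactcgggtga
Alyref, chr11:120598316-120598615, minus strand: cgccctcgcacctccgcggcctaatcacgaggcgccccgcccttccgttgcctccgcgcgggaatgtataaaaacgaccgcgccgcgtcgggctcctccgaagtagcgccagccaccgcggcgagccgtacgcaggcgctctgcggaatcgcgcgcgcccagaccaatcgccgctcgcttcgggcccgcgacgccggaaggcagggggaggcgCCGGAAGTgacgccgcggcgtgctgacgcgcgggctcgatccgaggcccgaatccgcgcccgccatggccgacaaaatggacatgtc
The run was chosen after the sequences had been seen. Searched on both strands, it occurs in 3.89% of 32851 RefSeq promoters of 300 bases. Those promoters hold a median of 7 CG pairs, whereas the ones of Nsun2, Nsun3 and Alyref hold 22, 23 and 54. The run itself contains a CG pair, and shares over all promoters are not matched for such pairs. RefSeq promoters, 11 in all, were found for 9 of the 10 genes, Nsun5 being the exception. Those of Nsun2, Nsun3 and Alyref and 1 of the promoters of Nsun6 hold the run. That Nsun6 promoter (chr2:15049263-15049562) spans the deposited start of Arl5b, a gene on the opposite strand. The Nsun6 promoter that covers the deposited Nsun6 start does not hold the run. The E-box letters CACGTG, also searched on both strands, occur in 7.15% of the same promoters and, among these genes, in that of Nop2. A match is a run of letters and not a measured binding site. Of the 4 genes that hold it only Nsun2, the gene knocked out, passed the test of a change in level described next. A link between the run and a change in level was not tested.

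Nsun2 mRNA was lower in NSUN2-KO, at about the middle of the range between 0 and the NC level rather than absent. NSUN2 methylates many cytosolic tRNAs, vault RNAs and a set of mRNAs. The NSUN2-KO replicates 1, 2 and 3 measured 0.967, 1.36 and 0.863 FPKM, against 1.88, 2.04 and 1.84 FPKM in NC replicates 1, 2 and 3. The groups did not overlap, and replicate 2 was the highest of the NSUN2-KO libraries. Counting error alone gave replicate 2 a 95% Poisson interval of 1.20 to 1.53 FPKM from 273 reads. This lay above the intervals of NSUN2-KO replicate 1 (0.844 to 1.10 FPKM, 223 reads) and replicate 3 (0.744 to 0.996 FPKM, 186 reads), and below that of every NC library, the lowest of which began at 1.67 FPKM. Such intervals cover counting error only. No reads of the 4 Y-linked genes were found in replicate 2 or the other NSUN2-KO libraries, where 3 reads of Ddx3y would have been at most 0.250% of the NC mean. Y-linked reads cannot show material from female cells, and why replicate 2 was higher was not tested.

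The mean level of Nsun2 in NSUN2-KO was 55.4% of that in NC, with 1.06 ± 0.26 FPKM in NSUN2-KO and 1.92 ± 0.11 FPKM in NC (SD, n = 3 each). Changes were tested by limma across the 9443 genes whose mean reached 1 FPKM, on log2(FPKM + 1). This scale understates the change of low genes. The p-values were adjusted by Benjamini-Hochberg, with a threshold of 0.05. Nsun2 fell by 0.51 on that scale (95% interval -0.74 to -0.28, limma adjusted p = 0.0228). Fitted to the recovered reads with limma voom, the level in NSUN2-KO was 0.540 times that in NC (95% interval 0.443 to 0.659, adjusted p = 0.000107). Permuting the 6 libraries exactly, two-sided, gave p = 0.1 for Nsun2, and no lower p is possible with 3 libraries a group. Of the 406 genes that fell, 26 had a log2 fold change at least as low as that of Nsun2, itself included, and 1.39% of tested genes had one at least as large in either direction.

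The call for Nsun2 ended when any library but NSUN2-KO replicate 2 was left out. The limma adjusted p was 0.0817 without NSUN2-KO replicate 1, 0.0540 without NSUN2-KO replicate 3, 0.0532 without NC replicate 1, 0.0848 without NC replicate 2 and 0.0698 without NC replicate 3. Without NSUN2-KO replicate 2 the log2 fold change was -0.61 (adjusted p = 0.0123). With no filter on low values it was -0.51 (adjusted p = 0.113). The sign was negative in every fit.

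**Figure D1:**
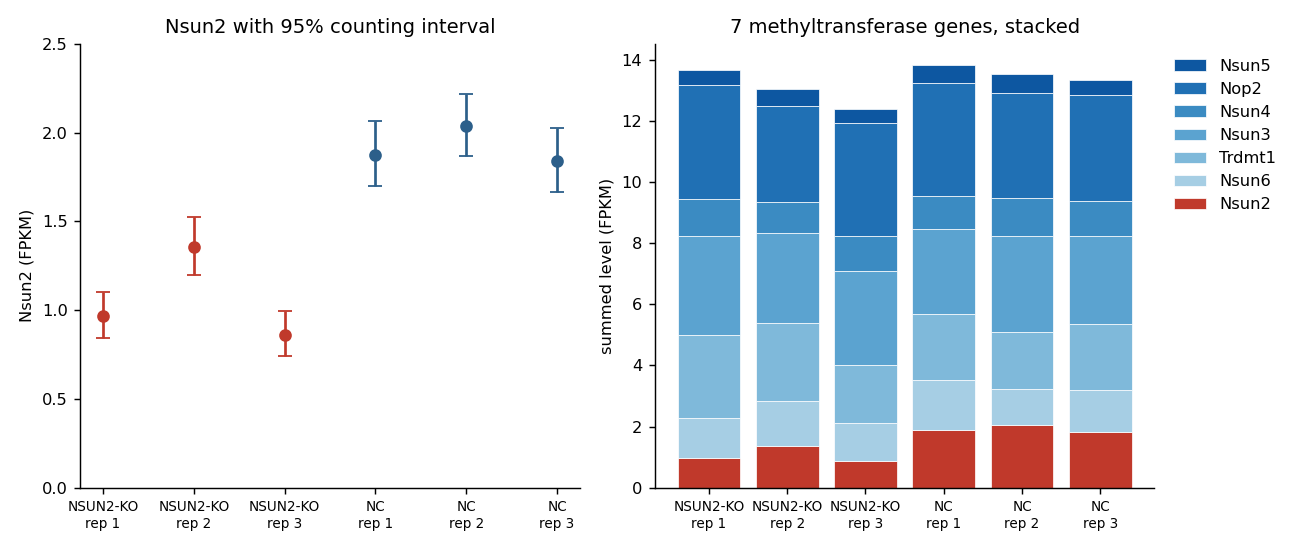
Left, Nsun2 in FPKM in each NSUN2-KO and NC library with the 95% Poisson interval of its reads; right, the FPKM of the 7 writer genes stacked per library, with Nsun2 at the bottom in red. The 3 NSUN2-KO libraries lie between 0.863 and 1.36 FPKM of Nsun2, all under the NC libraries, and the summed height of the bars overlaps between the groups.

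The gene model behind the Nsun2 value begins far upstream of the RefSeq gene. Nsun2 (ENSMUSG00000021595) is given at chr13:69533746-69635780 on the plus strand of GRCm38, whereas the RefSeq start is at position 69612016, 78270 bases further on. In GENCODE vM21, whose merged exons have the deposited length for all 10 genes (5737 bases for Nsun2), 2 of the 8 Nsun2 transcripts begin upstream of that start, of which 1 is annotated as coding and 1 as a processed transcript. Their extra exons make up 612 bases, 10.7% of the counted length. Of the counted bases, 634 are also exonic in Tent4a, a poly(A) polymerase gene on the opposite strand, or in the non-coding Gm17108. The sources used here do not say whether counting used strand, so reads from those bases are uncertain, and a value per gene does not show which exons the reads in NSUN2-KO came from.

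Tent4a measured 6.26, 6.05 and 6.35 FPKM in NSUN2-KO replicates 1 to 3 and 5.24, 5.45 and 5.67 FPKM in NC replicates 1 to 3. These values did not overlap and ran opposite to those of Nsun2, with NSUN2-KO higher. The log2 fold change of 0.16 did not pass the test (limma adjusted p = 0.0846), but limma voom on reads gave an adjusted p of 0.0301. Srd5a1, a steroid reductase gene that lies within the long Nsun2 span without sharing exons, measured 0.186 to 0.586 FPKM in NSUN2-KO and 0.142 to 0.325 FPKM in NC, so that its groups overlapped.

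Of the 9 m5C genes that passed the filter, 1 fell (Nsun2) and 0 rose. Over all 9443 tested genes 8.49% changed, 4.19% upward and 4.30% downward. The groups did not overlap for 2 of the 9, Nsun2 and Tet2, against 31.1% of all tested genes. The median log2 fold change of the 9 was -0.01, the same as over all tested genes at this rounding, and the median size of the change without regard to sign was 0.05 against 0.08 over all tested genes. Nsun5 lay under the filter and is given from its reads.

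**Figure D2:**
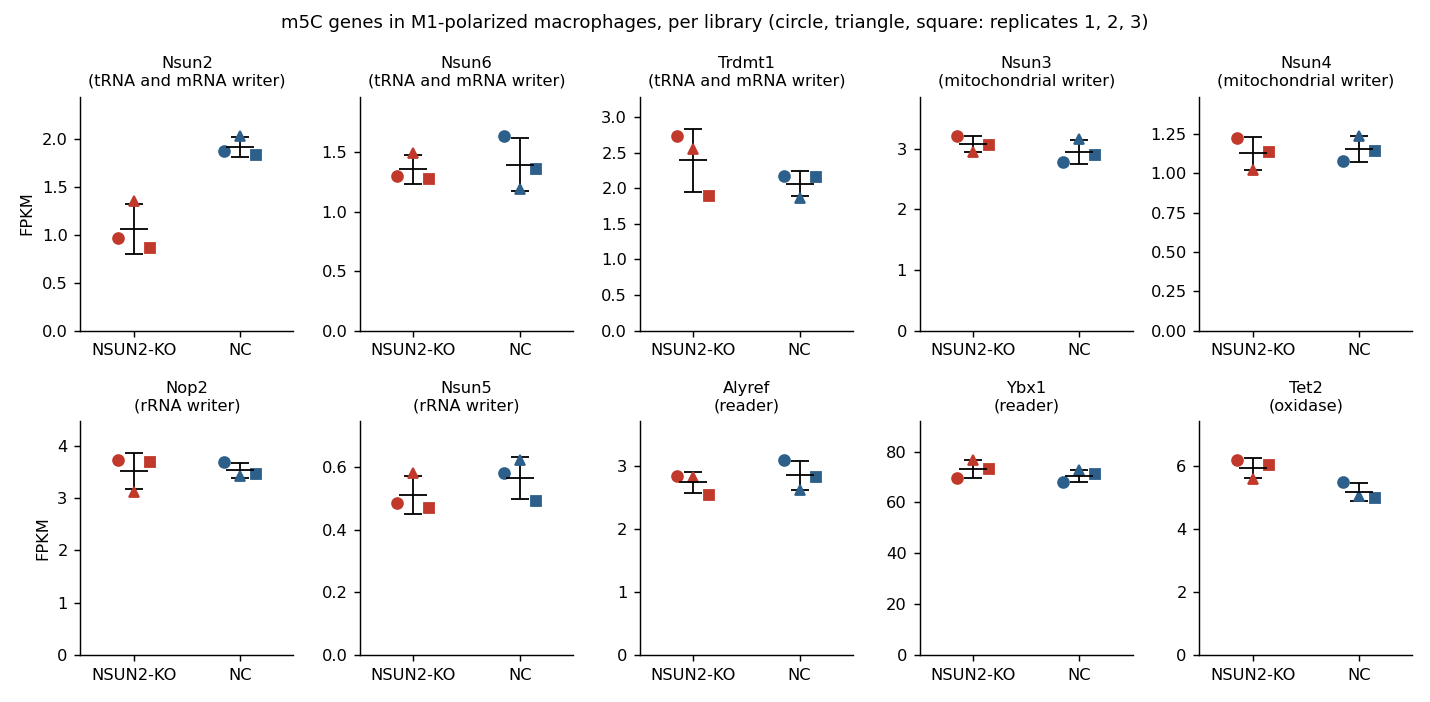
FPKM of the 10 m5C genes in each library, with NSUN2-KO in red left of NC in blue; bars are mean and SD of 3 libraries, and each panel starts at 0. Nsun2 and Tet2 are the panels in which the groups do not overlap.

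Among the other writers of tRNA and mRNA, Nsun6 and Trdmt1 overlapped between the groups. NSUN6 methylates a few tRNAs near their end and also mRNAs. Nsun6 measured 1.30, 1.49 and 1.27 FPKM in NSUN2-KO and 1.64, 1.19 and 1.36 FPKM in NC. Its NC libraries spread more widely than its NSUN2-KO libraries, which lay within the NC range. TRDMT1, which resembles DNA methyltransferases in sequence, methylates the anticodon loop of tRNA-Asp and a few other tRNAs. Trdmt1 measured 2.74, 2.55 and 1.90 FPKM in NSUN2-KO and 2.17, 1.86 and 2.15 FPKM in NC. In NSUN2-KO, replicates 1 and 2 were above every NC library and replicate 3 was not. On reads the level of Trdmt1 in NSUN2-KO was 1.16 times that in NC with a 95% interval of 0.957 to 1.41 (limma voom adjusted p = 0.371), and that of Nsun6 was 0.984 times with an interval of 0.805 to 1.20 (adjusted p = 0.947).

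The mitochondrial writers did not pass the test. NSUN3 methylates the wobble cytosine of mitochondrial tRNA-Met, and NSUN4 the small mitochondrial rRNA. NSUN4 also forms a complex with MTERF4. Nsun3 measured 3.21, 2.95 and 3.07 FPKM in NSUN2-KO and 2.79, 3.16 and 2.89 FPKM in NC. Nsun4 measured 1.22, 1.02 and 1.14 FPKM in NSUN2-KO and 1.08, 1.24 and 1.14 FPKM in NC. For both genes the groups overlapped, and the NSUN2-KO level by reads was 1.04 times the NC level for Nsun3 (95% interval 0.926 to 1.18, limma voom adjusted p = 0.726) and 0.977 times for Nsun4 (0.810 to 1.18, adjusted p = 0.919).

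The writers of large-subunit rRNA also overlapped between the groups. NOP2, or NSUN1, is a nucleolar factor of ribosome assembly, and NSUN5 methylates another site of the same rRNA. Nop2 measured 3.73, 3.12 and 3.69 FPKM in NSUN2-KO and 3.70, 3.42 and 3.46 FPKM in NC. The 2 means differed by less than the spread, at 3.51 ± 0.34 FPKM in NSUN2-KO and 3.53 ± 0.15 FPKM in NC (SD, n = 3 each), and by reads the ratio was 0.999 (95% interval 0.851 to 1.17, limma voom adjusted p = 0.998). Nsun5 measured 0.484, 0.581 and 0.469 FPKM in NSUN2-KO and 0.581, 0.622 and 0.491 FPKM in NC, from 76 to 88 reads in NSUN2-KO and 83 to 123 reads in NC. Exact permutation of these 6 values, two-sided, gave p = 0.2. Its interval on reads was the widest of the 10 genes, 0.658 to 1.23 times the NC level (limma voom adjusted p = 0.747). Of the counted bases of Nsun5, 15.4% are also exonic in Pom121 on the opposite strand. Pom121 had a higher level, at 6.47 to 6.74 FPKM in NSUN2-KO and 6.77 to 6.93 FPKM in NC. It was lower in NSUN2-KO without overlap (limma adjusted p = 0.503), the same direction as the Nsun5 means. Whether counting used strand is not given, so Nsun5 reads from the shared bases are uncertain.

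Across the 7 writers the summed level was 13.7, 13.1 and 12.4 FPKM in NSUN2-KO and 13.8, 13.5 and 13.3 FPKM in NC. Nsun2 held 7.08%, 10.4% and 6.97% of that sum in NSUN2-KO, against 13.6%, 15.1% and 13.8% in NC. Without Nsun2 the other 6 writers summed to 12.7, 11.7 and 11.5 FPKM in NSUN2-KO and 11.95, 11.5 and 11.5 FPKM in NC. These sums overlapped between the groups, whereas the shares of Nsun2 did not, and no test was made of either.

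The readers did not change by limma. ALYREF is the adaptor that hands spliced mRNAs to the export machinery and binds m5C in them, and YBX1 is a cold-shock domain protein that binds and stabilizes m5C-bearing mRNAs. Alyref measured 2.85, 2.82 and 2.55 FPKM in NSUN2-KO and 3.09, 2.62 and 2.83 FPKM in NC. Ybx1 measured 69.7, 76.7 and 73.1 FPKM in NSUN2-KO and 67.9, 72.6 and 71.0 FPKM in NC, the highest level of the 10 genes in every library. Both genes overlapped between the groups. With 6643 to 8414 reads per library, Ybx1 was also the gene with the narrowest interval, 0.973 to 1.11 times the NC level (limma voom adjusted p = 0.534). The interval of Alyref was 0.830 to 1.13 times (adjusted p = 0.854). A processed pseudogene, Ybx1-ps2, measured 0.195 to 0.598 FPKM in NSUN2-KO and 0.274 to 0.541 FPKM in NC, and reads that fit both copies are uncertain.

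Tet2 was higher in every NSUN2-KO library than in any NC library, by a small margin. TET2 is an iron- and oxoglutarate-dependent dioxygenase that is often mutated in blood disorders. Tet2 measured 6.20, 5.59 and 6.04 FPKM in NSUN2-KO and 5.51, 5.07 and 4.98 FPKM in NC. The gap between the lowest NSUN2-KO library and the highest NC library was small next to the spread within the groups, whose means were 5.95 ± 0.31 FPKM in NSUN2-KO and 5.18 ± 0.28 FPKM in NC (SD, n = 3 each). The log2 fold change of 0.17 (95% interval 0.03 to 0.30) did not pass the test over all genes (limma adjusted p = 0.118). Limma voom, which weights a gene by its reads, put it past the threshold at 1.15 times the NC level (95% interval 1.07 to 1.24, adjusted p = 0.0147), where it called 9.75% of 13659 genes. Whether Tet2 changed thus depends on the test, and exact permutation, two-sided, gave p = 0.1, again the smallest possible.

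**Figure D3:**
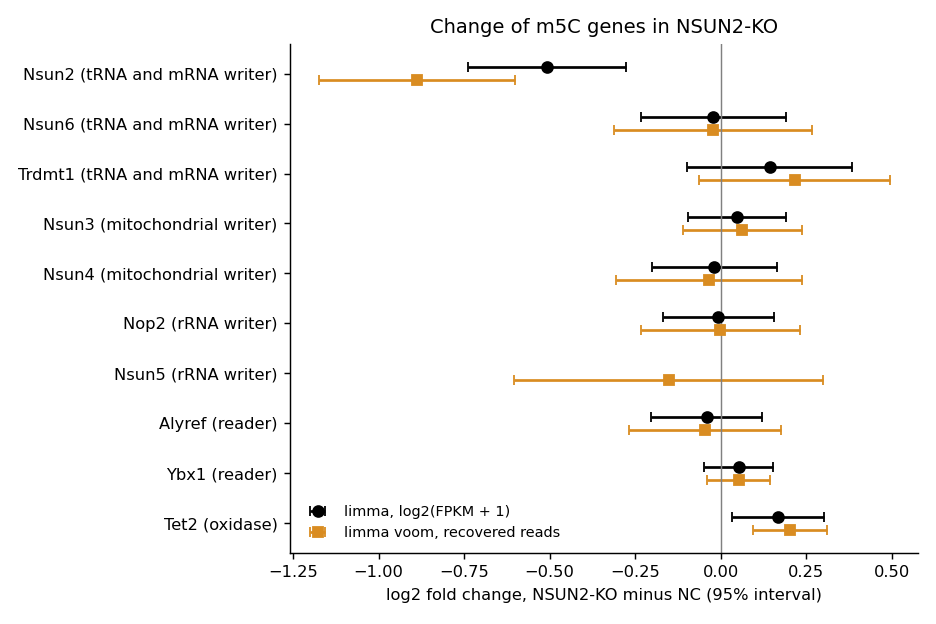
Log2 fold change of the m5C genes, NSUN2-KO minus NC, with 95% intervals from limma on log2(FPKM + 1) in black and from limma voom on recovered reads in orange. The intervals of Nsun2 and Tet2 lie clear of 0, though Tet2 passed the adjusted threshold only with voom; Nsun5 has only the value from reads.

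Ranked by FPKM, the 10 genes kept nearly the same order in both groups. In NSUN2-KO the order was Ybx1, Tet2, Nop2, Nsun3, Alyref, Trdmt1, Nsun6, Nsun4, Nsun2 and Nsun5. Neighbours whose values overlapped were Nop2 with Nsun3, Alyref with Trdmt1, and Nsun4 with Nsun2. In NC the order was Ybx1, Tet2, Nop2, Nsun3, Alyref, Trdmt1, Nsun2, Nsun6, Nsun4 and Nsun5, and the overlapping neighbours were Nsun3 with Alyref, Trdmt1 with Nsun2, and Nsun6 with Nsun4. The other 6 pairs of neighbours in each group were apart in all 3 libraries. Nsun2 was ninth by mean FPKM in NSUN2-KO and seventh in NC.

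Related genes outside these 10 were called at a share near that of all tested genes. Of 56 genes in lists of m5C partners, other readers, mRNA export, related families, rRNA processing and tRNA cleavage, 40 passed the filter, of which 2 rose and 1 fell. That is 7.5% of them, beside 8.49% of all tested genes, and their median log2 fold change was 0.05. In the TREX and NXF1 export list, to which ALYREF belongs by function, 0 of 14 tested genes changed by limma, 0 had an unadjusted p under 0.05 and 0 were called by limma voom on the same genes. Over all tested genes, 25.5% had an unadjusted p under 0.05 and 14.5% were called by that voom fit. The same 3 counts were 0 for the 5 other rRNA methyltransferases tested, for the 2 tested DNA cytosine methyltransferases and for Mterf4, Tet3 and Ybx3, the tested genes of their lists, and lists this short say little against those shares.

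The genes that changed by limma were Pabpc1, Ncl and Rnh1. Pabpc1, the cytoplasmic poly(A)-binding protein and a partner of YBX1, rose to 93.7 ± 2.28 FPKM in NSUN2-KO, against 84.6 ± 1.25 FPKM in NC (SD, n = 3 each; log2 fold change 0.14, limma adjusted p = 0.0301), as 1 of 5 tested readers and partners. Ncl, which encodes the nucleolar protein nucleolin, rose to 8.55 ± 0.52 FPKM in NSUN2-KO, against 7.03 ± 0.46 FPKM in NC (SD, n = 3 each; log2 fold change 0.25, limma adjusted p = 0.0464), as 1 of 10 tested nucleolar factors. Rnh1, the inhibitor of angiogenin-type ribonucleases that can cut unmethylated tRNAs, fell to 178.0 ± 3.70 FPKM in NSUN2-KO, against 205.5 ± 9.02 FPKM in NC (SD, n = 3 each; log2 fold change -0.21, limma adjusted p = 0.0183). The call of Ncl ended without any 1 of the 6 libraries (adjusted p from 0.0578 to 0.142) and that of Pabpc1 without any library but NSUN2-KO replicate 3 (0.0506 to 0.130). That of Rnh1 ended without NSUN2-KO replicate 1 (0.0668) or NC replicate 3 (0.0611). The call of Ncl ended as well with the GC content and length trend removed (0.0845). All 3 calls also ended when genes of low level were kept in (limma adjusted p from 0.0762 to 0.147) and with no trend (0.0582 to 0.0922). On reads all 3 passed the threshold, with limma voom adjusted p of 0.00403 for Pabpc1, 0.00158 for Ncl and 0.000467 for Rnh1. Fmr1, which encodes an RNA-binding protein of the readers list and lies on the X chromosome, was called by voom alone. It measured 6.64, 6.69 and 6.47 FPKM in NSUN2-KO and 6.29, 5.16 and 5.76 FPKM in NC, without overlap. Its log2 fold change was 0.18 with a limma adjusted p of 0.140, and the limma voom adjusted p was 0.0318.

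**Figure D4:**
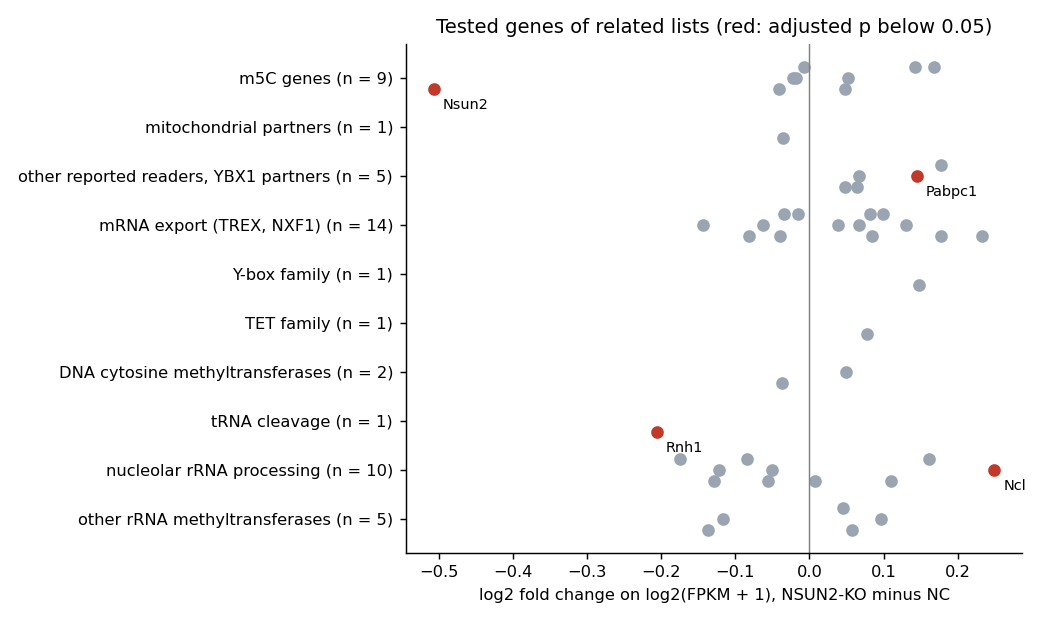
Change of each tested gene (NSUN2-KO minus NC, in log2 of FPKM + 1) in the m5C group and the related lists; red points passed an adjusted p below 0.05, and points are shifted vertically only for legibility. Nsun2 lies farthest from 0, and Pabpc1, Rnh1 and Ncl are the called genes of the other lists.

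The 5 protein-coding genes whose profile over the 6 libraries was most like that of Nsun2 were Atp8a1, Zfand3, Prdx6, Slc6a19 and H3f3a. Likeness was the mean absolute difference between profiles of log2(FPKM + 1), each centred and scaled to an SD of 1, and was 0.083 to 0.107 for these among 8512 genes compared. All 5 had their values in NSUN2-KO under those in NC, with NSUN2-KO replicate 2 the highest of its group, as chosen by the rule. Their differences were smaller than that of Nsun2. Atp8a1, a phospholipid flippase gene, measured 6.63 ± 0.25 FPKM in NSUN2-KO and 7.42 ± 0.04 FPKM in NC, and Zfand3 27.2 ± 1.09 FPKM in NSUN2-KO and 31.0 ± 0.43 FPKM in NC (SD, n = 3 each). Since the choice of these genes fixed the direction, no test of them is given. Slc6a19, an amino acid transporter gene, is on the same chromosome as Nsun2 (chr13:73679745-73704865).

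**Figure D5:**
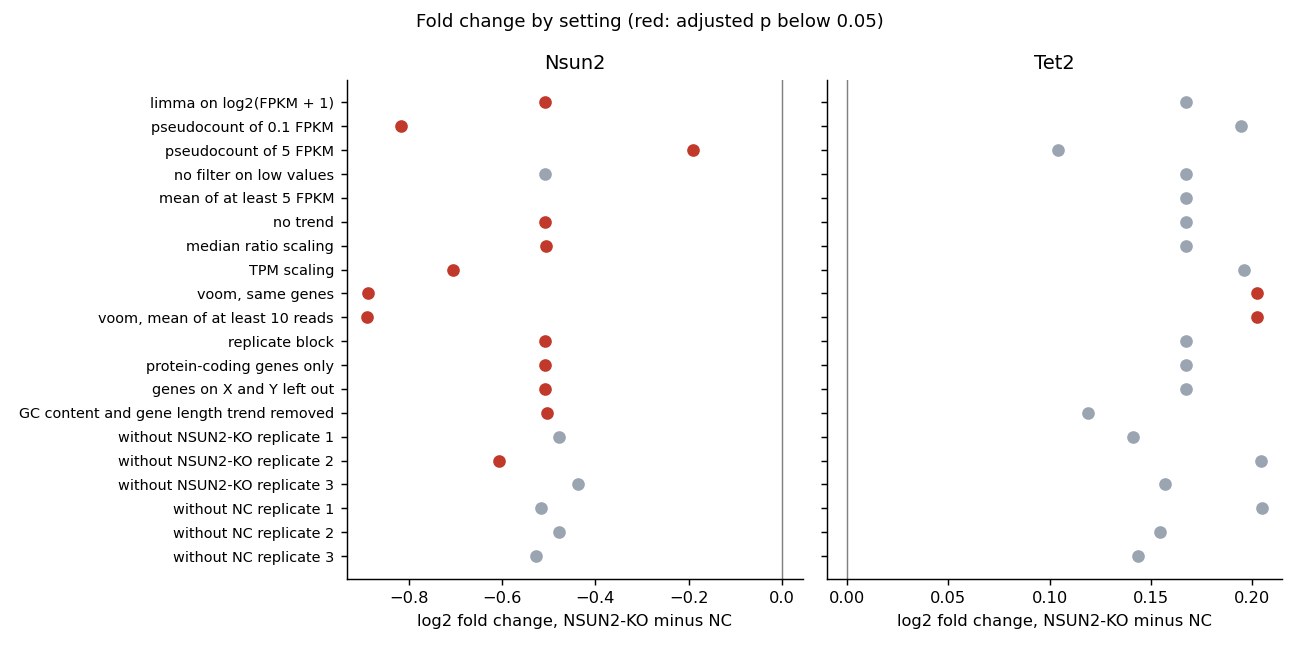
Log2 fold change of Nsun2 and Tet2, NSUN2-KO minus NC, under each way of scaling, filtering and testing the values and without each library; red points passed an adjusted p below 0.05. Every Nsun2 value lies under 0 and every Tet2 value above it, and Tet2 is red only with limma voom; the Nsun2 values run from -0.89 with voom to -0.19 with a pseudocount of 5 FPKM.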

How the data were processed

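Total RNA isolated with TRIzol was made into libraries with a commercial kit, per the labels' protocols. The FPKM values were deposited by the authors. The submitters' processing notes name HISAT2 2.0.5, CASAVA 1.8, DESeq2 1.20.0, fastp and featureCounts 1.5.0-p3, with the build GRCm38 (mm10). The sources used here do not give their settings or the annotation release. The design text gives 3 replicates per group in 1 place and fewer in another; the table holds 3 columns per group.

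Multiplied by gene length, 100% of FPKM values above 0 were whole multiples of 1 step per library (tolerance 0.01 reads), which gave the reads. The main test was limma 3.58.1 (R 4.3.3) with a trend of variance on level, for log2(FPKM + 1) of genes whose mean reached 1 FPKM. Alternatives were pseudocounts of 0.1 and 5, filters, scalings, limma voom on reads, a replicate block, removal of GC content and length trends (loess, span 0.5) and leaving out each library. The voom values in the report are from genes with a mean of at least 10 reads. Tests were checked on simulated data. Named were the 10 genes, changed genes of the lists, genes overlapping the 10 and the 5 genes most like Nsun2; the genes and lists were chosen with earlier results of these data known. Exons are from GENCODE vM21 and promoters from RefSeq (GRCm38.p6). Python 3.11.15, pandas 2.3.3 and scipy 1.17.1 were used.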

Additional observations from a re-analysis of the deposited data

How the results depend on the processing

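Nsun2 kept a negative log2 fold change in all settings, from -0.89 with limma voom on reads to -0.19 with a pseudocount of 5 FPKM. Its call ended with no filter on low values (-0.51, adjusted p = 0.113, over 24414 genes), and in 5 of 6 fits without a library (log2 fold change -0.61 to -0.44 over the 6). The number of m5C genes changed, 1 in the report, was 0 with no filter, 0 with a mean of at least 5 FPKM (which leaves 2 of them and removes Nsun2), 2 with limma voom on the same genes, 2 with limma voom on genes with a mean of at least 10 reads, and 0 to 1 without a library. The number of tested genes changed, 802 in the report, was 265 with no filter, 526 with no trend, 1372 with voom on the same genes, 1332 with voom on genes with at least 10 reads, 351 with the replicate block and 270 to 595 without a library. Samples that share a replicate number did not deviate together (correlations of -0.03 to 0.00). These values show no pairing by number, but they cannot show how the libraries were collected. With the block Nsun2 had a limma adjusted p of 0.0386 and the calls of Pabpc1 (0.0895) and Ncl (0.101) ended.

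Values near 0 changed sign: Nop2 was 0.059 with the GC content and length trend removed, and without a library Nop2 (-0.043 to 0.057), Nsun4 (-0.052 to 0.019), Nsun6 (-0.084 to 0.050) and Alyref (-0.084 to 0.0043) crossed 0. Pom121, which shares bases with Nsun5, was 0.017 with the GC content and length trend removed. Of 146 values of the 8 other tested m5C genes, 136 kept their direction and their side of the threshold, 8 changed sign and 2, both of Tet2 with voom, passed it. Depth limits Nsun5 most, with 76 to 123 reads per library.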

Other observations

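Nsun7, the remaining NSUN family gene, had 9, 4 and 3 reads in NSUN2-KO replicates 1 to 3 and 0 reads in each NC library. Nsun7 is named because of these values. The NSUN2-KO levels, 0.0148 to 0.0416 FPKM, stand against a floor of 3 reads per library, or 0.0122 to 0.0144 FPKM, in NC. Because Nsun7 was picked for these values no test is given, and with so few reads no fold.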
